A study of Mus musculus with 6 samples.

Results

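The thin filament of striated muscle was examined here through 10 of its genes in HL-1 cells, a cardiomyocyte cell line derived from mouse atrium. The genes were chosen by name, with earlier results of these data known. They cover troponin T (Tnnt2, Tnnt3), troponin I (Tnni1, Tnni3), troponin C (Tnnc1), tropomyosin (Tpm1), sarcomeric actin (Actc1, Acta1), and leiomodin (Lmod1, Lmod2). All 10 were found among the 21269 genes of the deposited table, and all 10 had a mean normalized count of at least 5, the minimum for testing. LNA gapmers are short DNA strands with locked nucleic acid ends that pair with an RNA and lead to its cleavage by RNase H. Cells were transfected with 50 nM of a control gapmer (LNA Control, 3 libraries, the control named ctrl2) or of a gapmer against the long noncoding RNA Malat1 (LNA Malat1, 3 libraries). Both groups were seeded 24 hours before transfection, collected 48 hours after it, and grown in the same Claycomb medium with serum and norepinephrine, so norepinephrine was present in the controls too. HL-1 is 1 cell line, and nothing in the labels says that the libraries of a group came from separate cultures, so p-values measure the spread between these samples only. The question was whether forms typical of the heart and forms typical of skeletal, fetal, or smooth muscle differed between LNA Malat1 and LNA Control.

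The thin filament is a polymer of actin with tropomyosin lying along it and a troponin complex at regular intervals. Troponin C binds calcium, troponin I holds contraction off until calcium is bound, and troponin T fastens the complex to tropomyosin. Leiomodins start new actin filaments and act at the pointed end, where tropomodulins cap them. Most of these proteins exist in several forms made from separate genes, and the heart changes some of its forms around birth, as when fetal troponin I gives way to the cardiac form.

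Normalized counts are the reads per gene after scaling each library by 1 factor and rounding, as deposited. Library totals ran from 4831007 to 4921406 in LNA Control and from 4758777 to 4762957 in LNA Malat1. The rounding steps gave back between 4512277 and 5592914 reads on genes per library. LNA Malat1 replicates 1 and 3 differed by less than the sampling noise over the 14522 genes with at least 20 reads (chi-square of 0.949 per gene), though not over the 1754 genes with the most reads (1.11). Replicates 1 and 2 gave 1.01 (chi-square p = 0.15) and replicates 2 and 3 gave 1.16, so this measure does not single out 1 pair. On the same measure the LNA Control pairs gave 2.09, 4.18, and 1.77, so the control libraries differed more among themselves. The closest pair, LNA Malat1 replicates 1 and 3, was counted as 1 sample in each mean ± SD, so n = 2 for LNA Malat1. Such an SD can be smaller than the spread of the 3 libraries, which the test used. In normalized counts, the targeted RNA went from 4872 ± 442 (SD, n = 3) to 2787 ± 6.72 (SD, n = 2), so that 57.2% was left, with an SD of 50.8 over the 3 LNA Malat1 libraries (log2 fold change -0.80, SE 0.07, limma adjusted p = 7.5e-06). Atrial markers were mixed. The transcription factor gene Nkx2-5 lay between 187 and 211 and the atrial light chain genes Myl4 and Myl7 between 18 and 49 in all 6 libraries, whereas Myh6, the main cardiac myosin gene of the adult mouse, lay between 0 and 7. Nppa and Sln were not found by name in the deposited table, so they were not analysed. A gene was called upregulated or downregulated when its limma adjusted p was 0.05 or lower and its fold change 1.5 or more, which 8.0% of the 15650 genes tested passed upwards and 2.92% downwards (1252 and 457 genes, against 748 and 718 after quantile normalization). In bulk RNA, fewer cells of a type and less RNA per cell cannot be told apart.

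Tnnt3, Lmod1, and Tnnc1 were upregulated in LNA Malat1, and no gene of the 10 was downregulated. The main cardiac forms Actc1, Tpm1, and Tnni3 did not pass the test, and Tnnt2, the cardiac troponin T gene, rose by a small step that passed the adjusted p but not the 1.5-fold minimum. On the adjusted p alone, 4 of the 10 were higher and 0 lower, where 14.3% of all genes tested were higher and 14.0% lower. In 5 of the 10, every LNA Malat1 library lay above every LNA Control library, against 20.5% of all genes tested, and in 0 of the 10 every one lay below, against 20.8%. The median log2 fold change of the 10 genes was 0.20 and that of all genes tested was 0.02. At an unadjusted p under 0.05, 5 of the 10 passed in limma, which also counts Lmod2.

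**Figure D1:**
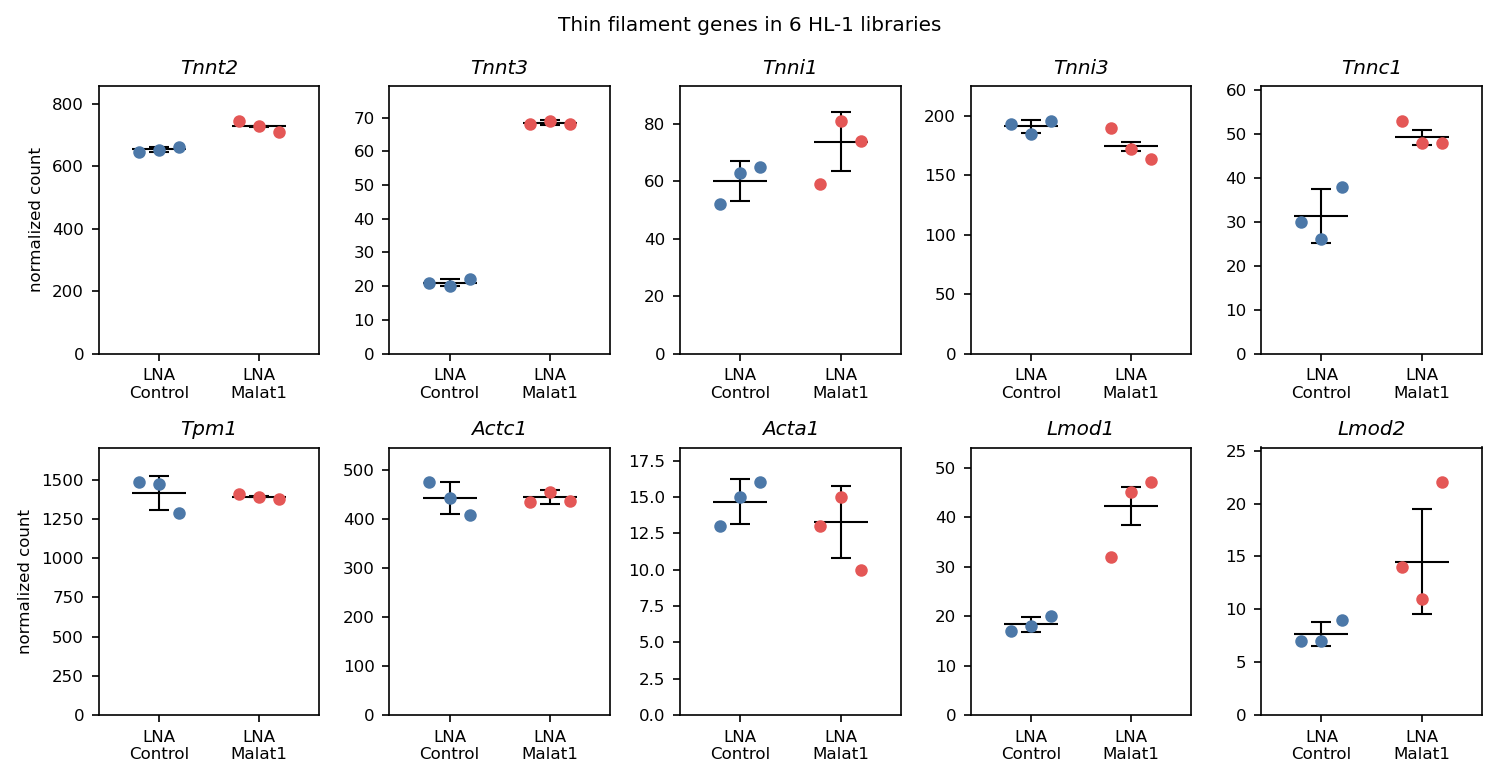
Normalized counts of the 10 thin filament genes in each library, with LNA Control in blue and LNA Malat1 in red, replicates 1 to 3 from left to right, and a linear axis from 0 in each panel. Horizontal bars and error bars give the mean ± SD (n = 3 for LNA Control, n = 2 for LNA Malat1 with replicates 1 and 3 as 1 sample), and the groups lie apart in Tnnt2, Tnnt3, Tnnc1, Lmod1, and Lmod2.

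Promoter sequences from RefSeq (GRCm38.p6, the build also called mm10) were read for the genes, from 250 bases before to 50 bases after the annotated start. The table matched 9 of the 10, all but Tnnt3. The windows of Tnni1 (chr1:135799171-135799470), Tnni3 (chr7:4522479-4522778), and Actc1 lay wholly inside the span of the gene in the deposited table. For these genes the RefSeq start used was thus not the 5′ end of that span. Shown here are the promoters of 2 upregulated genes and, for comparison, those of the cardiac and the skeletal actin gene. Capitals mark the letters searched on both strands, namely CATTCC or its reverse complement (the M-CAT element, bound by TEAD factors), the CArG box (bound by serum response factor), and TATAAA. No match of 1 motif overlapped that of another in these 4 sequences, which are printed 5′ to 3′ along the gene.
Tnnc1, chr14:31208062-31208361, plus strand: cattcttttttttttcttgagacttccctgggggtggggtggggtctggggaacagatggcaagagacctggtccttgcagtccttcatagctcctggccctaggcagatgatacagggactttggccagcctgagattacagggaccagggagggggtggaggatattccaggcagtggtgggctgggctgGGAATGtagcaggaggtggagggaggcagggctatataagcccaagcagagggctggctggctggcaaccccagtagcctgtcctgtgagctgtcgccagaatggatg
Lmod1, chr1:135324563-135324862, plus strand: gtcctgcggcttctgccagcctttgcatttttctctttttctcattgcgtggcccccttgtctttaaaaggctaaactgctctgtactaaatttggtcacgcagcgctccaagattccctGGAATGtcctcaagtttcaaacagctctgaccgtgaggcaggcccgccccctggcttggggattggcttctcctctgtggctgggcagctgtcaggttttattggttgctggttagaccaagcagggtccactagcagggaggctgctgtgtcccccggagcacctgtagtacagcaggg
Actc1, chr2:114052826-114053125, minus strand: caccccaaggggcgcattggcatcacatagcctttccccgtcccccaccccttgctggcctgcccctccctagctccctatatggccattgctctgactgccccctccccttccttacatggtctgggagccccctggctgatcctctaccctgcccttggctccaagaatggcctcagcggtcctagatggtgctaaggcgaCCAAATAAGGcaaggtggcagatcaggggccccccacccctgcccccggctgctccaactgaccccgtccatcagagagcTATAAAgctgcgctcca
Acta1, chr8:123894726-123895025, minus strand: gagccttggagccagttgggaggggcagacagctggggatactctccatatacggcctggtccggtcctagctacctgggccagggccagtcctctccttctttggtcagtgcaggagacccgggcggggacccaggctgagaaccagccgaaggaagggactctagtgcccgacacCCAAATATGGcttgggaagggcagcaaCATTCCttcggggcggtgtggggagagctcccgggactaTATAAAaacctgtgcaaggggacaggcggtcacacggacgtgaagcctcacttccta
Counted from +1 at the annotated start, the M-CAT match lay at -58 to -53 in Tnnc1 and at -130 to -125 in Lmod1, in both on the opposite strand to the gene. The CArG box lay at -47 to -38 in Actc1 and at -73 to -64 in Acta1, and TATAAA lay at +34 to +39 in Actc1 and at -7 to -2 in Acta1. Of the 9 promoters, 5 held CATTCC (Tnnt2, Tnnc1, Tpm1, Acta1, and Lmod1), where 14.7% of 32851 mouse promoters of the same length did. The CArG box was found in 2 of the 9, both of them actins, where 1.63% of all promoters held it, and TATAAA in the same 2, where 13.6% did. The MEF2 site, named for the MEF2 factors of muscle, was found in 0 of the 9 and in 3.19% of all promoters. M-CAT matches stood in 2 of the genes that were upregulated, Tnnc1 and Lmod1, the only upregulated genes with a sequence. They also stood in 3 of the genes that were not called, whereas Tnni1, Tnni3, Actc1, and Lmod2, also not called, held none. The matches are letters in these windows only.

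The troponin T forms were compared first. Tnnt3 (chromosome 7, 142498836 to 142516009, plus strand) encodes the troponin T of fast skeletal muscle. It was listed at 21, 20, and 22 normalized counts in LNA Control replicates 1, 2, and 3 against 68, 69, and 68 in LNA Malat1 replicates 1, 2, and 3. The 3 LNA Malat1 libraries lay within 1 count of each other and far above all LNA Control libraries. The mean rose from 21 ± 1.0 (SD, n = 3) to 68.5 ± 0.707 (SD, n = 2), which was 326.2% of the control mean, and the fold change on the log2(normalized count + 1) scale was 3.15 (log2 fold change 1.66, SE 0.16, limma adjusted p = 1e-05). The gene was called in 6 of 6 fits that each left out 1 library, with log2 fold changes between 1.62 and 1.69. The reads behind these values were few, at 62 in the control libraries against 216 in LNA Malat1, which gives a 95% interval of 2.48 to 4.45 on the fold change from counting error alone.

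Tnnt2 (chromosome 1, 135836354 to 135852260, plus strand) encodes cardiac troponin T, the form of the working heart. It was listed at 647, 654, and 663 in the control libraries against 746, 729, and 710 in LNA Malat1, so the groups did not overlap. The rise was from 654.7 ± 8.02 (SD, n = 3) to 728.5 ± 0.707 (SD, n = 2), or 111.3% of the control mean (log2 fold change 0.15, SE 0.05, limma adjusted p = 0.034), under the 1.5-fold minimum. Over the 3 LNA Malat1 libraries the SD was 18.0. The adjusted p lay between 0.029 and 0.14 when each library was left out in turn and was 0.069 after median-of-ratios scaling, so this small rise did not hold in every fit. Tnnt1, the slow skeletal troponin T gene, was listed at 12, 10, and 14 in the control libraries against 11, 14, and 4 in LNA Malat1 (limma adjusted p = 0.47).

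As a share of troponin T counts, summed over Tnnt1, Tnnt2, and Tnnt3 after division by the length of the longest coding transcript of each gene, Tnnt3 made up 3.41%, 3.23%, and 3.48% in LNA Control against 9.07%, 9.34%, and 9.57% in LNA Malat1. The mean was 3.38% ± 0.126 (SD, n = 3) and 9.33% ± 0.0149 (SD, n = 2). Tnnt2 remained the main form, at 94.7% ± 0.429 (SD, n = 3) and 89.2% ± 0.649 (SD, n = 2). These shares depend on the length used, because the annotation gives Tnnt2 exons of 7752 bases in all and a longest coding transcript of 1200 bases. With all annotated exons as the length, the Tnnt3 share was 12.9% ± 0.365 (SD, n = 3) and 30.5% ± 0.265 (SD, n = 2), and the groups lay apart on both lengths. The log2 ratio of Tnnt3 to Tnnt2 in normalized counts, in which the scaling of a library cancels, was higher by 1.504 in LNA Malat1, with all 3 libraries above those of LNA Control (two-sided exact permutation p = 0.1, the smallest that 3 against 3 libraries allow, and 0.4 after adjustment over the 4 ratios tested).

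**Figure D2:**
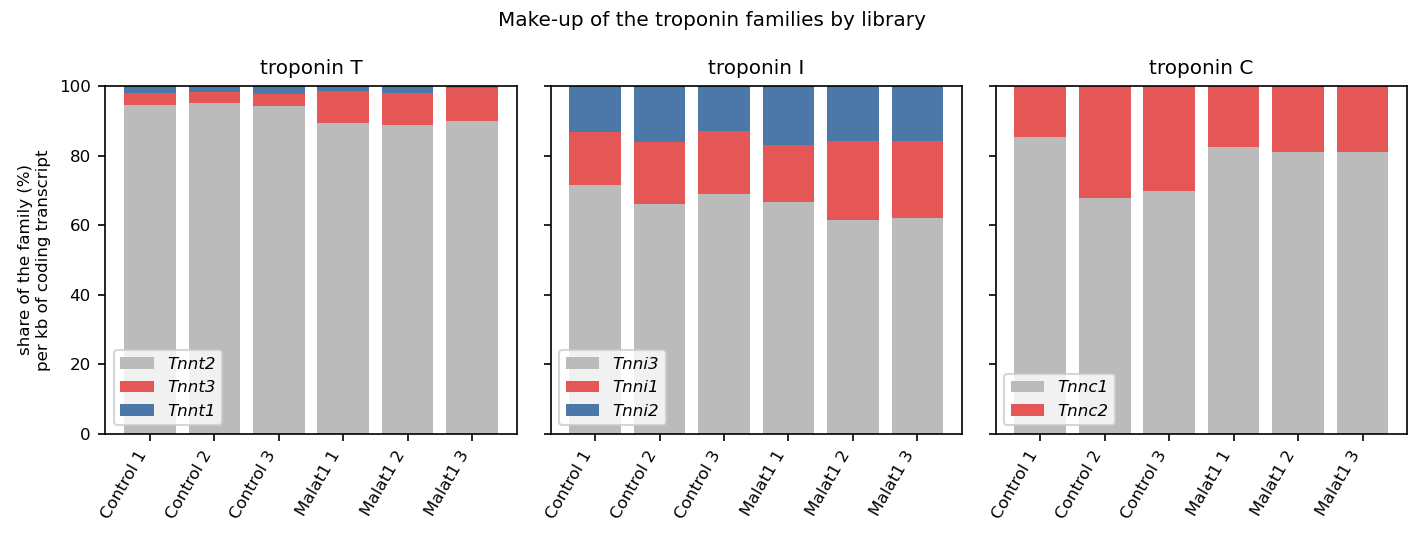
Share of each gene in its troponin family (%), from normalized counts per kb of the longest coding transcript, stacked to 100 for each of the 6 libraries, in the panels troponin T, troponin I, and troponin C. Tnnt3 takes 3.23% to 3.48% of troponin T in LNA Control and 9.07% to 9.57% in LNA Malat1, while the shares in the troponin I and troponin C panels overlap between the groups.

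The other skeletal muscle genes tested did not pass the threshold. Of 11 skeletal muscle marker genes, 3 were in the table and 1 passed the filter on low counts. Actn3, the fast fiber actinin gene, was listed between 83 and 89 in LNA Control and between 76 and 87 in LNA Malat1 (log2 fold change -0.07, limma adjusted p = 0.66). Pax7, which marks muscle stem cells, lay between 0 and 3, and Cacna1s, the calcium channel gene of skeletal muscle, at 1 or 2 in the control libraries against 3 to 6 in LNA Malat1. The summed count of these 3 genes was 85 to 91 in LNA Control and 85 to 90 in LNA Malat1. This sum was mostly Actn3 and says little about Pax7 and Cacna1s. In Cacna1s every LNA Malat1 library lay above every LNA Control library, at counts too low for the test. The muscle regulators Myod1, Myog, Myf5, and Myf6 and the myosins Myh1, Myh2, and Myh4 were not found by name in the deposited table, so they were not analysed. Tnni2, the fast skeletal troponin I gene that lies 54.42 kb before Tnnt3 on the same strand, was listed at 30, 38, and 31 in the control libraries against 41, 37, and 35 in LNA Malat1 (log2 fold change 0.19, limma adjusted p = 0.45). Tnnc2, the fast skeletal troponin C gene, lay between 5 and 16 in LNA Control and at 11 in each LNA Malat1 library (limma adjusted p = 0.83). Of the 4 fast skeletal genes Tnnt3, Tnni2, Tnnc2, and Actn3, Tnnt3 thus was the one that passed the test. The nebulin gene Neb, described below, passed the adjusted p but not the 1.5-fold minimum (log2 fold change 0.51, limma adjusted p = 0.0057).

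Among the troponin I forms, neither passed the test. Tnni3 (chromosome 7, 4518305 to 4524229, minus strand) encodes the adult cardiac form and was listed at 193, 185, and 196 in the control libraries against 190, 172, and 164 in LNA Malat1. Tnni1 (chromosome 1, 135779434 to 135810989, plus strand) encodes the slow skeletal form, which is also that of the fetal heart, and was listed at 52, 63, and 65 in the control libraries against 59, 81, and 74 in LNA Malat1. In both genes the groups overlapped. The log2 fold change was -0.13 for Tnni3 (SE 0.08, limma adjusted p = 0.24) and 0.24 for Tnni1 (SE 0.15, limma adjusted p = 0.25). The log2 ratio of the fetal to the cardiac form differed by 0.37 between the groups, with overlapping libraries (exact permutation p = 0.3, adjusted p = 0.533 over 4 ratios). Tnni1 made up 17.1% ± 1.57 (SD, n = 3) of troponin I per kb of coding transcript in LNA Control against 21.1% ± 2.57 (SD, n = 2) in LNA Malat1, and Tnni3 made up 68.8% ± 2.73 against 62.8% ± 2.06. HL-1 cells thus held both forms in both groups. The 95% interval of the fold change from counting error alone was 0.964 to 1.44 for Tnni1 and 0.812 to 1.03 for Tnni3.

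Tnnc1 (chromosome 14, 31208312 to 31211729, plus strand) encodes the troponin C that cardiac and slow skeletal muscle share. It was listed at 30, 26, and 38 in the control libraries against 53, 48, and 48 in LNA Malat1, with no overlap. The mean rose from 31.3 ± 6.11 (SD, n = 3) to 49.2 ± 1.77 (SD, n = 2), or 157.2% of the control mean (log2 fold change 0.66, SE 0.18, limma adjusted p = 0.015). This call was the least stable of the 3. It was lost without LNA Control replicate 2 (limma adjusted p = 0.059), without LNA Malat1 replicate 1 (0.071), after quantile normalization (log2 fold change 0.46, limma adjusted p = 0.052), and when LNA Malat1 replicates 1 and 3 stood as 1 sample (0.052). Tnnc1 lies inside Nisch, a gene on the opposite strand with between 2369 and 2745 normalized counts in the 6 libraries (log2 fold change -0.11, limma adjusted p = 0.2). Whether the counting used the strand is not stated, and no exon of Nisch in the annotation overlaps one of Tnnc1.

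Neither the actins nor the tropomyosin passed the test. Actc1 (chromosome 2, 114047282 to 114053548, minus strand), the cardiac alpha actin gene, was listed at 475, 444, and 409 in the control libraries against 434, 455, and 437 in LNA Malat1. Its mean was 442.7 ± 33.0 (SD, n = 3) and 445.2 ± 13.8 (SD, n = 2), or 100.6% of the control mean (log2 fold change 0.00, SE 0.06, limma adjusted p = 1.0). Counting error alone gave a 95% interval of 0.93 to 1.08 on its fold change. Acta1 (chromosome 8, 123891769 to 123894751, minus strand), the skeletal alpha actin gene that the fetal heart also uses, was listed at 13, 15, and 16 in the control libraries against 13, 15, and 10 in LNA Malat1. The groups overlapped (log2 fold change -0.21, SE 0.27, limma adjusted p = 0.6), and the 95% counting interval of 0.536 to 1.32 was wide. The log2 ratio of Acta1 to Actc1 differed by -0.21 (exact permutation p = 0.4, adjusted p = 0.533). Acta2, the smooth muscle actin gene, was listed at 1250, 1239, and 1074 in the control libraries against 1168, 1189, and 1088 in LNA Malat1 (limma adjusted p = 0.64). Per kb of coding transcript it made up 65.2% ± 0.788 (SD, n = 3) of the 3 alpha actins in LNA Control, with Actc1 at 33.6% ± 0.759 and Acta1 at 1.14% ± 0.203, and each share overlapped between the groups.

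Tpm1 (chromosome 9, 67022590 to 67049406, minus strand) encodes alpha tropomyosin, the main form of the heart, and had the highest normalized counts of the 10 genes. They were 1484, 1475, and 1290 in the control libraries against 1410, 1390, and 1376 in LNA Malat1, and the groups overlapped (log2 fold change -0.02, SE 0.06, limma adjusted p = 0.82). The other tropomyosin genes Tpm2 (log2 fold change 0.10, limma adjusted p = 0.28), Tpm3 (0.10, adjusted p = 0.22), and Tpm4 (-0.05, adjusted p = 0.55) did not pass the test either. Tpm1 makes muscle and nonmuscle transcripts by alternative splicing, and counts per gene do not separate them.

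Of the leiomodins, Lmod1 was upregulated and Lmod2 was higher without passing the test. Lmod1 (chromosome 1, 135324807 to 135368065, plus strand) is the leiomodin of smooth muscle and was listed at 17, 18, and 20 in the control libraries against 32, 45, and 47 in LNA Malat1. The groups did not overlap, and replicate 1 was the lowest LNA Malat1 library. The mean rose from 18.3 ± 1.53 (SD, n = 3) to 42.2 ± 3.89 (SD, n = 2), or 230.5% of the control mean (fold change 2.16, log2 fold change 1.11, SE 0.21, limma adjusted p = 0.0018), and the gene was called in 6 of 6 fits with 1 library left out, at log2 fold changes between 1.01 and 1.28. Lmod2 (chromosome 6, 24597762 to 24605414, plus strand) is the cardiac leiomodin and had the lowest normalized counts of the 10 in LNA Control, at 7, 7, and 9 in the control libraries against 14, 11, and 22 in LNA Malat1. Its groups did not overlap, yet the LNA Malat1 libraries were spread widely (log2 fold change 0.90, SE 0.33, limma adjusted p = 0.056). Lmod2 thus lay on the edge of the threshold, and it was called with a pseudocount of 5 (limma adjusted p = 0.048), with voom on the recovered reads (0.045), and without LNA Control replicate 3 (0.047). The log2 ratio of Lmod1 to Lmod2 did not separate the groups (difference 0.22, exact permutation p = 0.9, adjusted p = 0.9) and was -0.06 without LNA Malat1 replicate 2, so a different response of the smooth muscle and the cardiac form was not shown.

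Of the 6 smooth muscle marker genes, 5 were in the table, and their summed count lay between 1778 and 1977 in LNA Control and between 1919 and 2044 in LNA Malat1. Cnn1 (log2 fold change 0.40, limma adjusted p = 0.0035) and Smtn (0.33, adjusted p = 0.0044), a calponin and a smoothelin gene of contractile smooth muscle, rose by less than 1.5-fold beside Lmod1. Myh11, the myosin gene that defines smooth muscle, was listed at 18, 22, and 21 in the control libraries against 17, 16, and 8 in LNA Malat1 (limma adjusted p = 0.15). Of the ventricular markers, Myl2 (log2 fold change 0.66, limma adjusted p = 0.0016) and Hey2 (1.42, adjusted p = 0.00013) were upregulated, and Myl3 lay between 0 and 3. The study had already reported a rise of Myl2, Hey2, and Tnnt3 in these data. The marker lists were chosen with earlier results known, so Myl2, Hey2, and their sum are no separate support. The 3 ventricular markers in the table, of 4 listed, summed to between 79 and 86 in LNA Control and to between 142 and 166 in LNA Malat1. The part of these markers in the rise of Tnnt3, Tnnc1, and Lmod1 was not tested.

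**Figure D3:**
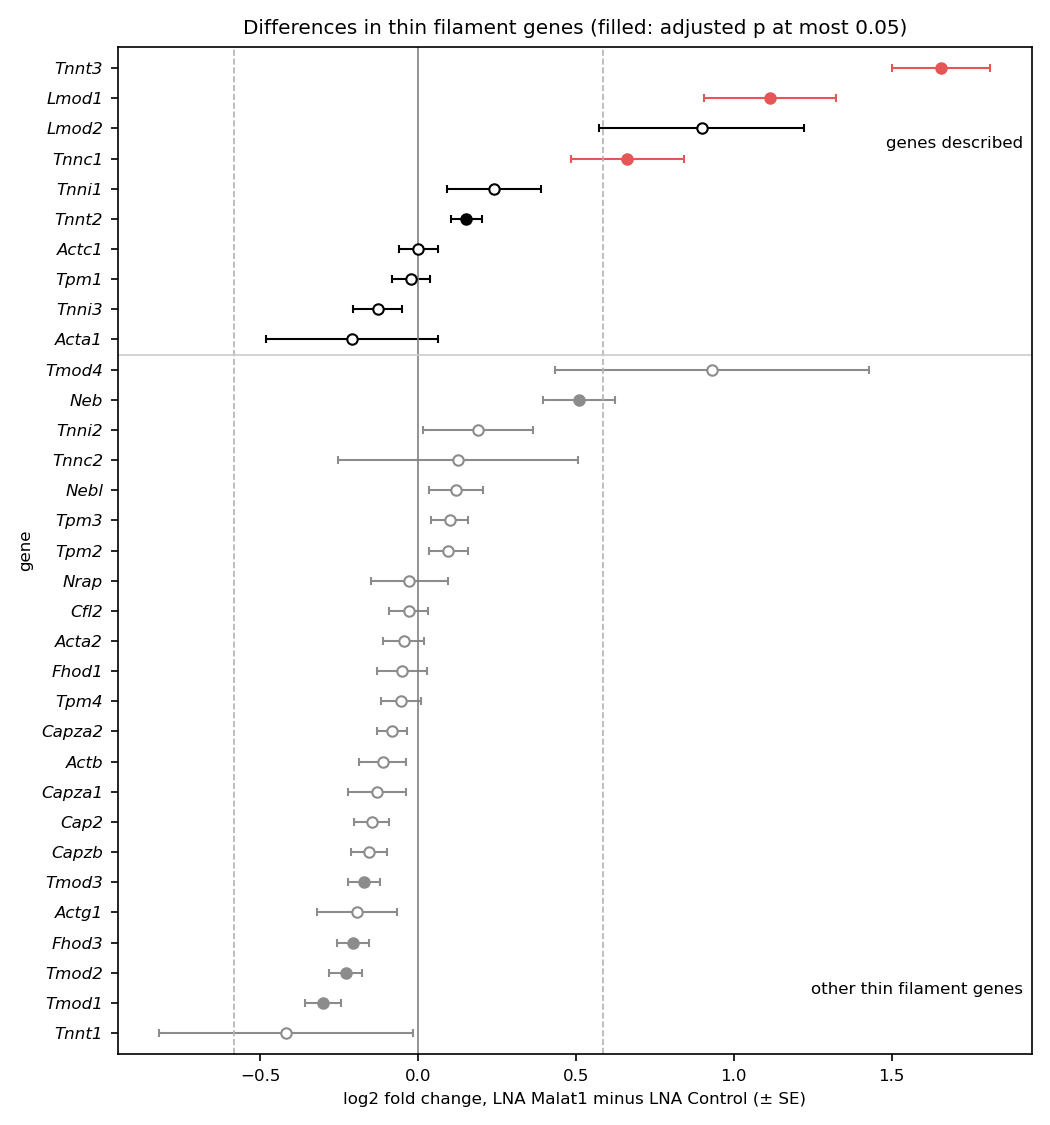
Log2 fold change between LNA Malat1 and LNA Control (x axis, with SE) for the 10 thin filament genes described and, under the grey line, for 23 other thin filament genes, with filled points for an adjusted p of at most 0.05 and dashed lines at a 1.5-fold change. Tnnt3, Lmod1, and Tnnc1 (red) are the genes that passed both thresholds, and Tmod1, Tmod2, Tmod3, and Fhod3 lie to the left of 0 with filled points.

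Other genes of the thin filament were taken from a list of 25, of which 23 were in the table and tested. None was called. On the limma adjusted p alone 1 was higher and 4 were lower, where 14.3% and 14.0% of all genes tested were, so a count of 4 among 23 is close to that share, and 7 passed an unadjusted p under 0.05. The median log2 fold change was -0.06. Neb, which encodes the long ruler protein nebulin, was listed at 732, 870, and 1128 in the control libraries against 1289, 1335, and 1208 in LNA Malat1, apart between the groups but with wide spread in the controls (log2 fold change 0.51, limma adjusted p = 0.0057). The 4 lower genes were the tropomodulin genes Tmod1 (log2 fold change -0.30, limma adjusted p = 0.0018), Tmod2 (-0.23, adjusted p = 0.0063), and Tmod3 (-0.17, adjusted p = 0.023), which cap pointed ends, and Fhod3 (-0.21, adjusted p = 0.0096), a formin of the cardiac sarcomere. Tmod1, the tropomodulin of striated muscle, was listed at 477, 442, and 436 in the control libraries against 375, 360, and 363 in LNA Malat1. Tmod3 did not pass the adjusted p with LNA Malat1 replicates 1 and 3 averaged (limma adjusted p = 0.074), after quantile normalization (0.095), or with voom (0.051), and with each library left out the adjusted p reached 0.092 for Tmod3 and 0.057 for Fhod3. Tmod4, the tropomodulin of skeletal muscle with 2 to 17 counts, did not pass either (log2 fold change 0.93, limma adjusted p = 0.18). The cytoplasmic actins Actb (log2 fold change -0.11, limma adjusted p = 0.28) and Actg1 (-0.19, adjusted p = 0.27) did not pass the test.

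A list of 17 factors that regulate transcription or splicing of sarcomere genes gave 0 called genes, with 0 higher and 5 lower on the limma adjusted p alone, beside 14.3% and 14.0% of all genes tested, and 6 at an unadjusted p under 0.05. The 5 were Hand2 (log2 fold change -0.30, adjusted p = 0.0013), Gata6 (-0.35, adjusted p = 0.0028), Gata4 (-0.21, adjusted p = 0.0079), Tead1 (-0.36, adjusted p = 0.013), and Tbx5 (-0.22, adjusted p = 0.045). Tbx5 did not pass with LNA Malat1 replicates 1 and 3 averaged (limma adjusted p = 0.082), after quantile normalization (0.12), or with voom (0.089), and with each library left out the adjusted p reached 0.19 for Tbx5 and 0.082 for Tead1. Tead1, a factor that binds M-CAT elements, was listed at 1595, 1234, and 1200 in the control libraries against 1059, 958, and 1105 in LNA Malat1. The serum response factor gene Srf (limma adjusted p = 0.66), its partners Myocd (0.43), Mrtfa (0.98), and Mrtfb (0.43), and Mef2a (0.62), Mef2c (0.96), and Mef2d (0.56) did not pass the test.

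In LNA Control the levels of the 10 genes per kb of their longest coding transcript ran from 545.6 ± 6.68 (SD, n = 3) normalized counts for Tnnt2 over 490.1 ± 37.9 for Tpm1, 300.5 ± 22.4 for Actc1, and 209.8 ± 6.23 for Tnni3 to 52.2 ± 6.09 for Tnni1, 43.5 ± 8.47 for Tnnc1, 19.5 ± 0.927 for Tnnt3, 10.1 ± 1.06 for Acta1, 4.64 ± 0.387 for Lmod1, and 3.88 ± 0.584 for Lmod2. The ranges of Tnni1 and Tnnc1 and those of Lmod1 and Lmod2 overlapped, and the other neighbours in this order lay apart in all 3 libraries. Tnnc1 thus stood well under the other cardiac troponin genes in these cells. With all annotated exons as the length, Actc1 came first at 273.6 ± 20.4 and Tnnt2 after Tpm1 and Tnni3 at 84.5 ± 1.03. On that length Tnnc1 (30.1 ± 5.87) came before Tnni1 (16.7 ± 1.94), with ranges apart. The order of the 4 most abundant genes and that of Tnni1 and Tnnc1 thus depend on the length.

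The genes that rose were among the less abundant ones. Tnnt3, Tnnc1, and Lmod1 had mean normalized counts of 20 to below 50 over the 6 libraries, a range in which 19.6% of 1835 genes were upregulated and 3.87% downregulated, and in which the median log2 fold change was 0.23. Lmod2 and Acta1 lay in the range of 10 to below 20, where the median was 0.32. Tnni1, with 50 to below 100, stood in a range with a median of 0.07, and Tnnt2, Tpm1, Actc1, and Tnni3 in ranges with medians of -0.05 or -0.04. Quantile normalization moved the median of the genes between 20 and 50 to -0.02, and under it the log2 fold change was 1.47 for Tnnt3 (limma adjusted p = 2.4e-05) and 0.83 for Lmod1 (limma adjusted p = 0.0097), both still called, whereas Tnnc1 was not. The share of such upregulated genes at this level, and not the share among all genes, is thus the nearer background for the 3 calls.

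**Figure D4:**
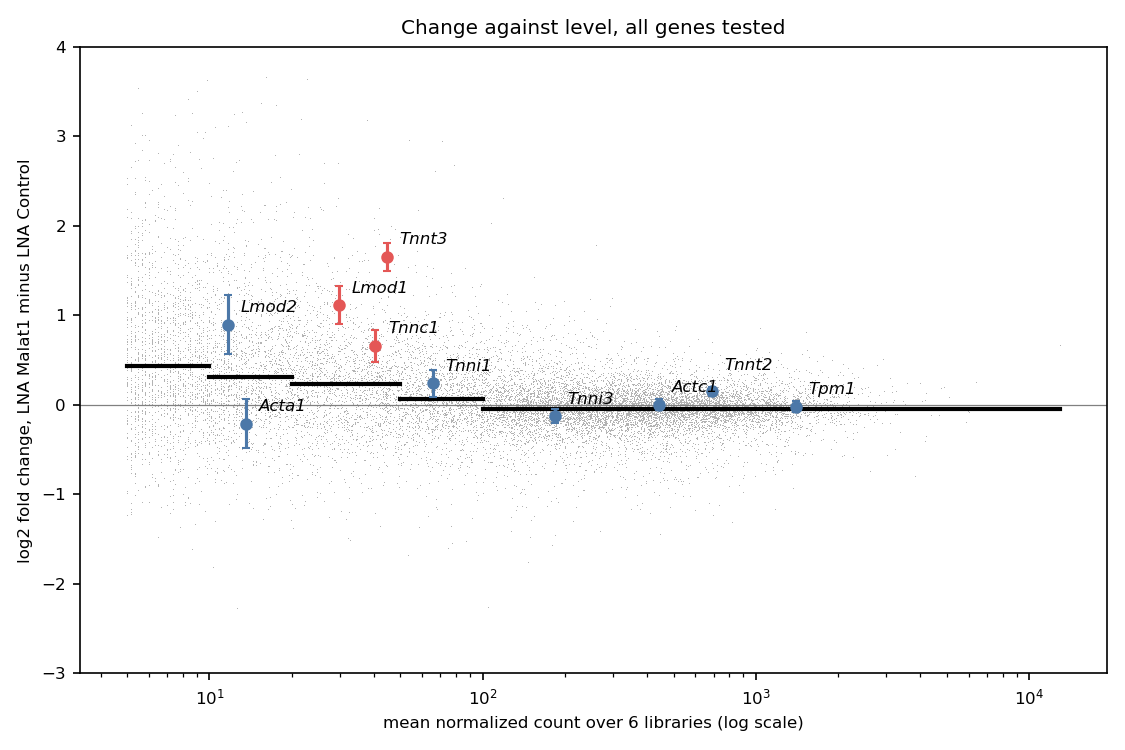
Log2 fold change against the mean normalized count over the 6 libraries (log axis) for the 15650 genes tested (grey), with the median of each range of counts as a black line and the 10 thin filament genes with their SE in red where called and blue where not. Low-count genes lie higher on average, and Tnnt3, Lmod1, and Tnnc1 stand above the line of 0.23 for their range, while Acta1 stands below its line of 0.32 (3 genes lie outside the range drawn).

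High counts were limited in this table. Of 15210 genes with a mean of at least 5 and at least 500 exonic bases, 13 had over 0.5 normalized counts per exonic base and 0 had over 1, and the highest was B2m at 0.684. Actc1 reached 0.273 and Tpm1 0.217, which ranked 292 and 608, whereas Tnnt3 (0.0282), Tnnc1 (0.0389), and Lmod1 (0.00756) lay far lower. Malat1 itself reached 0.744 in 1 LNA Control library. The sources used here do not say whether reads with the same start were counted once. If they were, the differences printed for Malat1, Actc1, and Tpm1 would be understated. The same would hold for Tnnt2. With Tnnt2 understated more than Tnnt3, the share of Tnnt3 would be too large, and so could the difference in their ratio. Tnnt2 lay at 0.0892 per exonic base over all annotated exons. Per kb of its longest coding transcript it lay at 545.6 in LNA Control, the highest of the thin filament genes described. None of this was tested.

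Several of the genes lie close together. On chromosome 1, Lmod1, Tnni1, and Tnnt2 follow each other on the plus strand, 411.4 kb and 25.36 kb apart, and of these Lmod1 alone was called. On chromosome 7, Tnnt1 and Tnni3 are 1.922 kb apart and neither passed the test. The pair of Tnni2 and Tnnt3 at the far end of chromosome 7 holds the largest change of the 10 genes beside a gene that did not pass. Within 100 kb of the 10 genes, in a description added after the data were seen, 4 of 44 further genes tested were called higher and 0 lower. The 4 are 9.09% of these neighbours, near the 8.0% of all genes tested. They were the lincRNA gene Gm33148, 75.73 kb from Tnnt3, at 2, 1, and 2 in the control libraries against 18, 28, and 28 in LNA Malat1, Shisa4, 2.991 kb from Lmod1 on the opposite strand, at 87, 78, and 91 and at 127, 143, and 129, Stab1 near Tnnc1 (log2 fold change 1.32, limma adjusted p = 0.016), and the lincRNA gene Gm19299 near Tpm1 (3.25, adjusted p = 0.00028). H19, an imprinted noncoding RNA gene 59.52 kb from Tnnt3, was listed at 335, 367, and 358 in the control libraries against 250, 228, and 230 in LNA Malat1, which passed the adjusted p but not the fold minimum (log2 fold change -0.58, limma adjusted p = 3.9e-05).

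Reads could be shared between genes in few places. No stretch of 75 bases, the read length, in the transcripts of Tnnt2, Tnnt3, Tnni1, Tnnc1, Tpm1, Actc1, Lmod1, or Lmod2 was found in a transcript of another gene. In Acta1 it was 6 of 1521 stretches, shared with Gm47692 and in part with Actb, and in Tnni3 12 of 2239, shared with Dnaaf3, which overlaps 86 exonic bases of Tnni3 on the same strand. Prr33 on the opposite strand overlaps the body of Tnnt3 and was listed at 12, 5, and 8 in the control libraries against 11, 8, and 12 in LNA Malat1 (limma adjusted p = 0.53). No exon of Prr33 in the annotation overlaps one of Tnnt3.

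The genes whose pattern over the 6 libraries was most like that of Tnnt3, among 10490 genes with a mean of at least 50, were Igf2r (Pearson r = 0.9994), Gm19744 (0.9981), Enc1 (0.9978), Aasdh (0.9976), and Nlrx1 (0.9974). Igf2r, the receptor that clears insulin-like growth factor 2, was listed at 114, 115, and 123 in the control libraries against 413, 402, and 397 in LNA Malat1. These correlations describe how evenly a gene split into 2 levels with little spread among the libraries of either group, and they carry no test because all genes were read in the same 6 libraries.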

How the data were processed

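RNA from HL-1 cells was sequenced in 6 libraries as single-end reads of 75 bases, from total RNA prepared with a stranded kit. By the study's methods and the submitters' processing notes, the authors used Trimmomatic 0.39 for trimming, STAR 2.7.7a for alignment to mm10, and featureCounts 1.6.5 for counting on exons without reads of more than 1 gene or region, and normalized and tested with DESeq2 1.30.0. The values the authors deposited are treated as a score, namely counts divided by the factor of their library and then rounded, and they are called normalized counts.

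Groups came from the sample labels. The 10 genes and all lists were chosen with earlier results of these data known. The 15650 of 21269 genes whose mean normalized count reached 5 entered limma 3.58.1 (R 4.3.3, lmFit, then eBayes with trend, two-sided) as log2(normalized count + 1), with Benjamini-Hochberg adjustment over all of them. Fold changes on this scale understate the change of low genes. The test was checked on simulated data. Ratios were compared by an exact permutation test. Reads were recovered from the rounding steps, and intervals from them cover counting error only, since reads are not independent molecules. Named genes are the 10, Malat1, called genes of the lists, every troponin, tropomyosin, and actin gene listed, genes that overlap the 10, and the 5 genes most like Tnnt3. List genes that passed only the adjusted p, Srf and its partners, single marker genes, B2m, Tmod4, and the neighbours within 100 kb were named after their values were seen. Exonic lengths and overlaps came from GENCODE M21, in which all 10 genes have the coordinates of the deposited table, and promoters from RefSeq. Alternatives were the replicate block, pseudocounts of 0.1 and 5, 3 other scalings, other filters and fold minimums, a test against a 1.5-fold change, each library left out, LNA Malat1 replicates 1 and 3 as 1 sample, and voom on the recovered reads.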

Additional observations from a re-analysis of the deposited data

How the results depend on the processing

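Of the 10 thin filament genes 3 were called higher, and this became 0 with a mean of at least 50, because Tnnt3, Tnnc1, and Lmod1 fall under that filter, and 1 with the test against a 1.5-fold change. Without a fold change minimum, 1 of the other thin filament genes was called higher and 4 lower, and 5 regulator genes lower. With each library left out, between 0 and 1 other thin filament genes were called higher, the 1 without LNA Control replicate 3. The difference in the log2 ratio of Lmod1 to Lmod2 ranged from -0.063 to 0.375 with each library left out, with the one negative value without LNA Malat1 replicate 2.

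The same-numbered replicates correlated at 0.086, 0.182, and 0.083 in their deviations from the group means. Replicates of unlike number correlated between -0.189 and 0.046, so every same-numbered value lay above them. The labels give a shared number only, and whether the replicates were paired was not tested. With the replicate number as a replicate block, 3 of the 10 genes were called higher and 0 lower, with limma adjusted p of 3.7e-05 for Tnnt3, 0.0021 for Lmod1, and 0.017 for Tnnc1, and the difference in the log2 ratio of Tnnt3 to Tnnt2 within numbers was 1.504.

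Over all genes tested, 1252 were called higher and 457 lower. The counts were 748 and 718 after quantile normalization, 317 and 349 with a mean of at least 50, 2231 and 2195 with no fold change minimum, 742 and 99 with a fold change of at least 2, 192 and 99 with the test against a 1.5-fold change, and 796 and 427 when LNA Malat1 replicates 1 and 3 stood as 1 sample. With each library left out they ranged from 769 to 1621 and from 405 to 476, and the calls upwards were fewest without LNA Malat1 replicate 1 (769) and replicate 3 (796). Depth limits Lmod2 and Acta1 most, which had at most 22 normalized counts in any library.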
